A study of Homo sapiens with 8 samples.

Results

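The proteasome is the barrel-shaped protease that degrades proteins marked with ubiquitin, and the genes described here encode its subunits, activators and assembly factors. They were chosen by symbol, as the PSMA, PSMB, PSMC, PSMD, PSME, PSMF and PSMG genes with at least 1 FPKM in at least 2 libraries. FPKM is a level scaled to transcript length and to the size of the library. This gave 40 genes of the 13068 listed in both deposited tables. All 40 passed the filter on low values, as did 12939 genes in all. A further 3 symbols, PSMA2, PSMC4 and PSME2, were listed in the second table alone and stayed under 1 FPKM in all 4 of its libraries. The 40 genes were grouped as 6 of the 7 alpha-ring genes, 7 of 7 beta-ring genes, 8 of 9 base genes, 8 of 8 lid genes, 4 of 5 activators and inhibitors, and 7 of 7 assembly factors.

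RNA was sequenced from sorted KG-1a cells, an established human acute myeloid leukaemia line that the labels also call bone marrow and leukemia stem cell. The shNYNRIN cells, genotype NYNRIN-knockdown, carried a hairpin RNA against NYNRIN delivered by lentivirus. The shCTL cells, genotype WT, carried a control hairpin, and each group has 4 libraries. All cells had therefore taken up a hairpin virus, and the labels name 1 cell line and no other agent, time or dose. The libraries were deposited in 2 tables, and each table holds 2 libraries of each group: replicates 1 and 2 form set 1, and replicates 3 and 4 form set 2. The labels do not say how many hairpin sequences were used or whether replicates were separate cultures. P-values therefore measure only the spread between libraries, and that spread may be technical. The column of shCTL replicate 3 holds whole numbers while the other 7 hold decimals, so that library is quoted as listed and entered no test.

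As background, the proteasome has a core particle of 4 stacked rings. The outer alpha rings gate entry and the inner beta rings carry the proteolytic sites, which belong to PSMB5, PSMB6 and PSMB7. A regulatory particle caps the core: its base holds the ATPases that unfold and thread the substrate together with ubiquitin receptors, and its lid holds the enzyme that removes ubiquitin. Alternative activators can take the place of the regulatory particle, and dedicated chaperones assemble both particles. Subunit genes are known to be transcribed together, in part through the factor NFE2L1, which binds antioxidant response elements, and blood cancers are treated with drugs that block PSMB5.

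The sequences upstream of 3 alpha-ring and lid genes, PSMA3, PSMA5 and PSMD12, are shown because these genes moved in opposite directions in the 2 sets, as described further on, and hold a motif match outside annotated exons. They come from the RefSeq promoter table of build GRCh38.p14, 5′ to 3′ on the strand of the gene, and leave out annotated exons. Capitals mark a match to CCAAT (the CCAAT box; ATTGG on the other strand) or to TGACNNNGC (the core of the antioxidant response element), which do not overlap in these stretches. The PSMA3 stretch is chr14:58244593-58244830 on the plus strand, positions -250 to -13 from the RefSeq start. That of PSMA5 is chr1:109426449-109426698 on the minus strand, positions -250 to -1; and that of PSMD12 is chr17:67366628-67366827 on the minus strand, positions -250 to -51.
PSMA3: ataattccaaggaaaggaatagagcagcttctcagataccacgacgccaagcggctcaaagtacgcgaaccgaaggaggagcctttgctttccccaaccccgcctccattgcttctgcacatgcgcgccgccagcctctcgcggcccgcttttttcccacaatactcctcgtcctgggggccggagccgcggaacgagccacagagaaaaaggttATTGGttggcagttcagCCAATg
PSMA5: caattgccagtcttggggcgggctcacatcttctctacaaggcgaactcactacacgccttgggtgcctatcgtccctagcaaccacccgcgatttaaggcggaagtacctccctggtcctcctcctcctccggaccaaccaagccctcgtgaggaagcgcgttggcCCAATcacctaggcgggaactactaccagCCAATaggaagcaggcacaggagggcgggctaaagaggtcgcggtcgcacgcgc
PSMD12: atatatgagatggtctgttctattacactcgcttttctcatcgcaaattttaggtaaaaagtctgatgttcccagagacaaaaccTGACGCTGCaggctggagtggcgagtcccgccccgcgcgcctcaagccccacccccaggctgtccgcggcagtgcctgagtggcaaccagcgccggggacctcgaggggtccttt
In these stretches PSMA3 held CCAAT matches at position -35 on the other strand and at -18 on the strand of the gene. PSMA5 held CCAAT at -83 and -54, and PSMD12 the antioxidant response element core at -165, all on the strand of the gene. PSMD7 and PSMD10, which also moved in opposite directions, held CCAAT at -198 and, on the other strand, at -76, both overlapping annotated exons, and are not printed. Of 9 genes that moved in opposite directions 8 had a promoter, and upstream 4 held CCAAT and 1 the antioxidant response element core. Over all genes the shares were 39.7% and 16.1%, in windows that also hold 50 bases after the start. The printed stretches were picked for a match, and a tie between motif and direction was not tested.

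A RefSeq promoter was found for 34 of the 40 genes, in 42 windows of 300 bases from 250 before to 50 after a transcript start. TGACNNNGC occurred on either strand in 12 of the 42 windows, beside 13.4% of all 35116 windows in the table. CCAAT occurred in 17 of the 42, beside 34.6% of all windows. The ETS core, spelled CCGGAAG, occurred in 14 of the 42, beside 10.3% of all windows. These are matches of letters and were not tested.

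NYNRIN, the gene the hairpin targets, had 6.98 and 7.30 FPKM in shNYNRIN libraries against 12.2 and 12.5 FPKM in shCTL libraries of set 1. In set 2 it had 2.83 and 2.84 FPKM in shNYNRIN libraries against 10.4 FPKM in shCTL replicate 4 and a listed 10 in replicate 3. Its log2 fold change was -0.71 ± 0.052 in set 1 and -1.57 ± 0.064 in set 2 (SE; limma, adjusted p = 0.000984 and 0.000119). The targeted RNA was lower in every shNYNRIN library than in the shCTL libraries of its set, and the drop was larger in set 2 (difference -0.85 ± 0.082, limma, adjusted p = 0.00132). Here and below ± after a log2 fold change is its standard error, on the scale of log2(FPKM + 1), which understates the change of low genes.

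CD34, for which KG-1a cells are known, was low in all 8 libraries, at 0.681 to 1.42 FPKM in shNYNRIN libraries and at most 1.79 FPKM in shCTL libraries, and MPO, the granule enzyme of myeloid cells, was at 0 in set 2. PTPRC, the pan-leukocyte antigen, had 24.3 to 27.0 FPKM in shNYNRIN libraries and 22 to 30.7 FPKM in shCTL libraries. HBB, the beta-globin gene of red cells, was present, at 31.4 to 39.6 FPKM in shNYNRIN libraries and 36.0 to 50.8 FPKM in shCTL libraries. The 3 T cell markers CD3E, CD3D and CD8A summed to at most 0.0213 FPKM in any library of set 2. Of the 5 myeloid progenitor markers tested, 2 fell in set 1, beside 6.61% of all genes tested, and in set 2, 3 rose and 1 fell, beside 11.6% and 8.71%. PTPRC changed by -0.32 in set 1 and 0.21 in set 2 on the log2 scale, and CD34 by -0.69 in set 2 (limma, adjusted p = 0.00298, 0.0122 and 0.0201). KIT and CD33 rose in set 2 by 0.48 and 0.38, and SPN fell in set 1 with -0.25 (limma, adjusted p = 0.00635, 0.00416 and 0.00642). These 3 were well above CD34, at 27.4 to 34.4, 21.8 to 24.8 and 64.8 to 74.1 FPKM in shNYNRIN libraries. In shCTL libraries they had 19.9 to 30.2, 18 to 23.5 and 67 to 79.9 FPKM. LYZ, a monocyte gene, had 12.2 and 14.4 FPKM in shNYNRIN libraries against 9.22 and 9.02 FPKM in shCTL libraries of set 1, and rose by 0.49 in set 1 and 0.43 in set 2 (limma, adjusted p = 0.00942 and 0.0205), while CD14, also of monocytes, was under 0.1 FPKM in set 2. The summed FPKM of the 6 myeloid markers was 143.6 to 155.4 in shNYNRIN libraries and 129 to 163.7 in shCTL libraries, and the part of cell composition in the results below was not tested. In RNA from many cells, fewer cells of a type and less RNA per cell cannot be told apart.

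**Figure D1:**
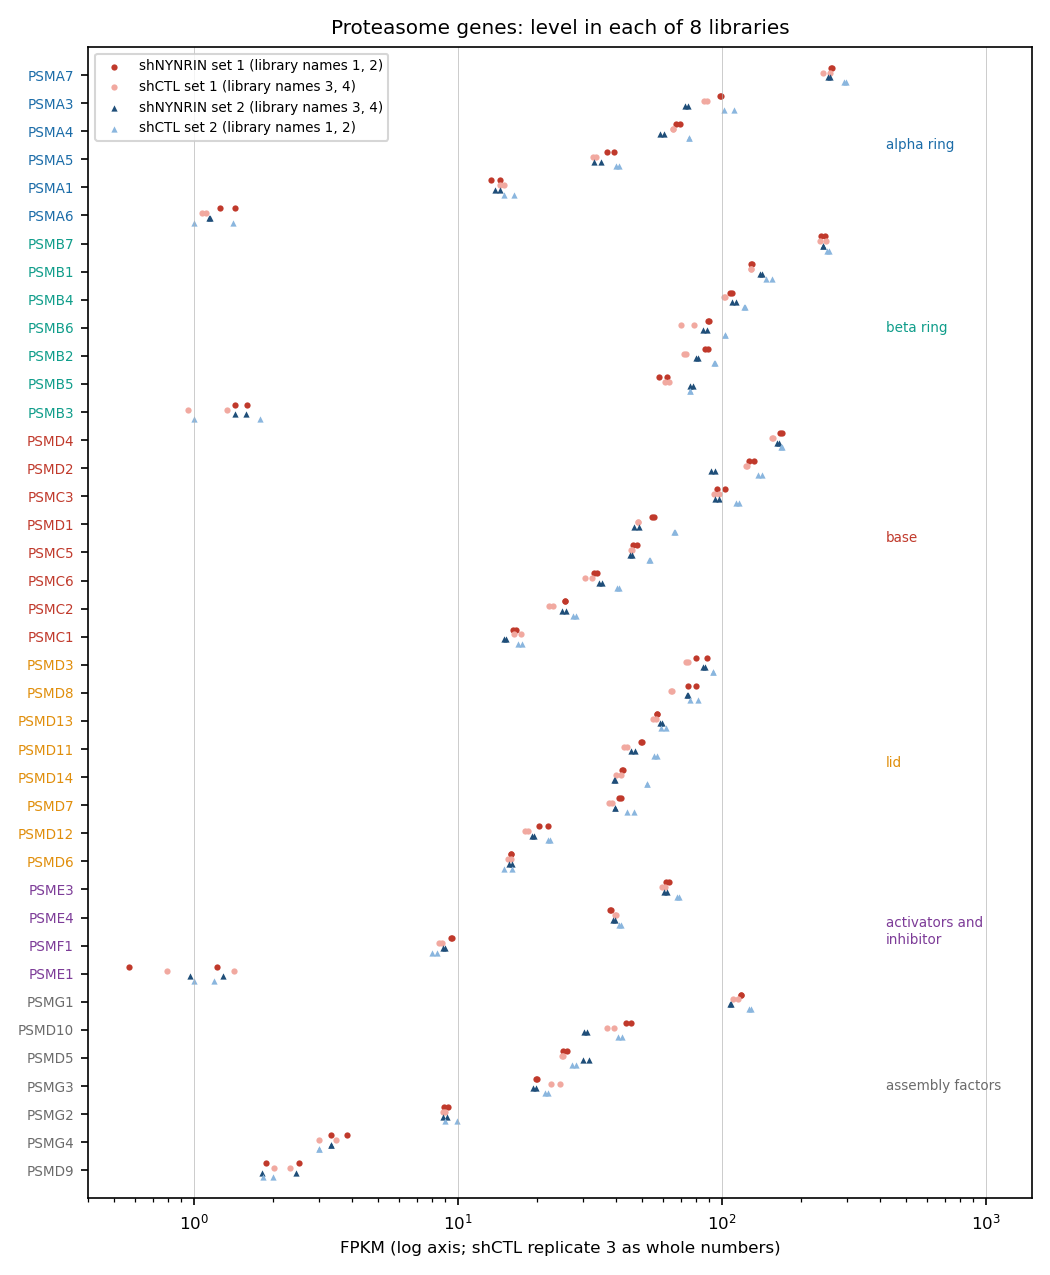
Level of each of the 40 proteasome genes in each of the 8 libraries, in FPKM on a log axis, grouped by the role of the subunit. Circles are set 1 and triangles set 2, dark for shNYNRIN and pale for shCTL; PSMA7 and PSMB7 are the highest, and PSMA6, PSMB3 and PSME1 lie near 1 FPKM.

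Levels of the 40 genes ran over more than 2 orders of magnitude, and the plot of levels by library shows each value. PSMA7, an alpha-ring subunit, was the highest, at 260.6 FPKM over the 7 libraries with decimals. It had 261 and 262 FPKM in shNYNRIN libraries against 241 and 257 FPKM in shCTL libraries of set 1. Set 2 gave 259 and 254 FPKM in shNYNRIN libraries against 290.3 FPKM in shCTL replicate 4 (listed at 296 in replicate 3). PSMB7, the beta-ring subunit with the trypsin-like site, came next at 244 FPKM, with 238 to 247 FPKM in shNYNRIN libraries and 237 to 255 FPKM in shCTL libraries. The ranges of PSMA7 and PSMB7 overlapped, so their order was not separated by the spread. PSMD4, the ubiquitin receptor of the base, followed at 163 FPKM, and PSMB1, a beta-ring subunit with no active site, at 135 FPKM, and these 2 ranges did not overlap in the 7 libraries with decimals. The order of levels compares genes per length and sets 2 tables side by side for which no source used here states a common scaling.

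At the low end, PSME1 averaged 1.07 FPKM, PSMA6 1.23 FPKM, PSMB3 1.45 FPKM and PSMD9 2.12 FPKM, although PSMA6 and PSMB3 belong to the rings of the same core as PSMA7 and PSMB7. PSME1, a subunit of the interferon-inducible activator, had 1.23 and 0.569 FPKM in shNYNRIN libraries against 0.792 and 1.43 FPKM in shCTL libraries of set 1. The set 2 values were 1.29 and 0.972 FPKM in shNYNRIN libraries against 1.19 FPKM in shCTL replicate 4. PSMA6 had 1.26 and 1.43 FPKM in shNYNRIN libraries against 1.11 and 1.07 FPKM in shCTL libraries of set 1, and 1.15 FPKM in both shNYNRIN libraries against 1.41 FPKM in shCTL replicate 4 of set 2. The 3 genes listed in the second table alone were lower still: PSMA2 had 0.448 and 0.446 FPKM in shNYNRIN libraries and 0.617 FPKM in shCTL replicate 4. PSMC4 had 0.323 and 0.538 FPKM in shNYNRIN libraries and 0.505 FPKM in shCTL replicate 4, and PSME2 had 0.340 and 0.263 FPKM in shNYNRIN libraries and 0.265 FPKM in shCTL replicate 4. In the authors' deposited table the mean normalized counts behind these low levels were 39.4 for PSMB3, 44.4 for PSME1, 224 for PSMA6 and 259 for PSMD9. A sizeable part of some genes' exon bases is shared with a neighbour in GENCODE 29 (75.8% for PSMC1, 34.6% for PSMA2, 30.7% for PSMD7, 24.7% for PSMA1, 22.7% for PSMD9, 19.5% for PSMC5, 14.1% for PSMA6, and 0% for PSMB3 and PSMC4). No source used here states how such reads, or reads shared with pseudogene copies, were assigned, and these levels are uncertain for that reason.

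ShNYNRIN libraries were compared with shCTL libraries for each subunit gene, and the calls differed in direction between the sets. Within each set the hairpin also goes with the numbers in the library names, described further on, and these cannot be told apart. In set 1, 13 of the 40 genes (32.5%) rose in shNYNRIN libraries, beside 9.33% of all genes tested, and 1 gene fell, beside 6.61%. In set 2, 19 of the 40 (47.5%) fell, beside 8.71% of all genes, and 1 rose, beside 11.6%. Effects were small: the median log2 fold change of the 40 genes was 0.068 in set 1 and -0.17 in set 2, against 0.026 and 0.018 over all genes, and the largest was -0.61. Both shNYNRIN libraries lay above both shCTL libraries of set 1 for 26 of the 40 genes, beside 35% of all genes, and below them for 3, beside 24.5%. In set 2 both shNYNRIN libraries lay below both shCTL libraries for 29 of the 40, beside 22.1% of all genes, and above them for 1, beside 27.1%, with 1 FPKM allowed for the whole numbers of shCTL replicate 3.

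The set 1 count depended on single libraries. It was 4 without shCTL replicate 1 and 4 without shCTL replicate 2, 7 without shNYNRIN replicate 1, 8 without replicate 2, 7 without replicate 3 and 7 without replicate 4, in place of 14. The set 2 count was 11 without shNYNRIN replicate 3 and 11 without replicate 4, in place of 20, and 24 with shCTL replicate 3 taken in. With upper-quartile scaling 7 genes rose and 1 fell in set 1, while over all genes 823 rose and 1148 fell in place of 1207 and 855. Every gene called in set 1 or in set 2 kept its sign there under every alternative tried. For set 2 and for the difference between the sets there were 6 fits with 1 library left out. ShCTL replicate 4, the only set 2 control tested, could not be left out there. How far these calls depend on that library was therefore not tested. The counts with 1 library left out, here and below, have no share over all genes beside them. A general loss of calls with fewer libraries was therefore not told apart from a loss in these genes.

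In the alpha ring, 2 of 6 genes rose in set 1 and 4 of 6 fell in set 2. The shares over all genes were 9.33% and 8.71%, and the medians of the ring were 0.12 and -0.21. PSMA3 had 99.9 and 99.1 FPKM in shNYNRIN libraries against 85.6 and 87.7 FPKM in shCTL libraries of set 1. Values in set 2 were 72.9 and 74.4 FPKM in shNYNRIN libraries against 112 FPKM in shCTL replicate 4 (listed at 102 in replicate 3). The groups did not overlap in either set, and shNYNRIN was the higher in set 1 and the lower in set 2. Its log2 fold change was 0.20 ± 0.028 in set 1 and -0.60 ± 0.035 in set 2 (limma, adjusted p = 0.00751 and 0.000353). PSMA5 had 36.7 and 39.1 FPKM in shNYNRIN libraries against 33.5 and 32.5 FPKM in shCTL libraries of set 1. Set 2 had 33.0 and 34.9 FPKM in shNYNRIN libraries against 39.9 FPKM in shCTL replicate 4 (listed at 41). It was likewise higher in both shNYNRIN libraries of set 1 and lower in both of set 2, by 0.19 ± 0.046 and -0.23 ± 0.056 on the log2 scale (limma, adjusted p = 0.0332 and 0.0308).

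PSMA4 fell in set 2, to 58.4 and 60.5 FPKM in shNYNRIN libraries, against 75.3 FPKM in shCTL replicate 4 (listed at 75), while set 1 gave 67.3 and 69.7 FPKM in shNYNRIN libraries against 65.4 and 65.6 FPKM in shCTL libraries. Its log2 fold change was -0.34 ± 0.040 in set 2 and 0.06 ± 0.033 in set 1 (limma, adjusted p = 0.00253 and 0.233). PSMA7, whose levels are given above, fell by 0.18 in set 2 (limma, adjusted p = 0.0255). PSMA1 and PSMA6 passed in neither set. When 1 library was left out at a time, PSMA3 lost its set 1 call without shCTL replicate 1 (adjusted p = 0.0523). PSMA5 lost its set 1 call without shCTL replicate 1 or 2 or shNYNRIN replicate 2, 3 or 4 (adjusted p up to 0.148). It lost its set 2 call without shCTL replicate 1 or 2 or shNYNRIN replicate 3 or 4 (adjusted p up to 0.126). PSMA7 lost its set 2 call without shNYNRIN replicate 3 or 4 (up to 0.113), and the set 2 calls of PSMA3 and PSMA4 held in all 6 such fits.

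In the beta ring, 2 of 7 genes rose in set 1 and the same 2 fell in set 2, with medians of 0.078 and -0.13. Over all genes 9.33% rose in set 1 and 8.71% fell in set 2, and 2 in 7 is too few to set against these shares. PSMB2, a subunit with no active site, had 88.8 and 86.5 FPKM in shNYNRIN libraries against 73.2 and 72.3 FPKM in shCTL libraries of set 1. For set 2 the values were 80.3 and 81.5 FPKM in shNYNRIN libraries against 94.8 FPKM in shCTL replicate 4 (listed at 94). The groups were apart in both sets and in opposite order, with log2 fold changes of 0.27 ± 0.028 and -0.23 ± 0.035 (limma, adjusted p = 0.00363 and 0.00640). PSMB6, which carries the caspase-like site, had 89.7 and 89.1 FPKM in shNYNRIN libraries against 78.3 and 70.4 FPKM in shCTL libraries of set 1. Set 2 gave 84.8 and 87.9 FPKM in shNYNRIN libraries against 104 FPKM in shCTL replicate 4 (listed at 103). It followed the same pattern, with 0.26 ± 0.051 and -0.26 ± 0.062 (limma, adjusted p = 0.0182 and 0.0286).

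The other 2 active-site subunits gave no call in either set. PSMB5, the chymotrypsin-like subunit that proteasome drugs block, had 62.1 and 58.1 FPKM in shNYNRIN libraries against 63.4 and 61.2 FPKM in shCTL libraries of set 1. The set 2 values were 78.1 and 76.1 FPKM in shNYNRIN libraries against 76.3 FPKM in shCTL replicate 4 (listed at 76). The groups overlapped in both sets, and its level was higher in set 2 than in set 1 in shNYNRIN and shCTL libraries alike. Its log2 fold change was -0.05 ± 0.040 in set 1 and 0.02 ± 0.049 in set 2 (limma, adjusted p = 0.433 and 0.864), and the set 2 value turned to -0.0053 with upper-quartile scaling. PSMB7 had 247 and 238 FPKM in shNYNRIN libraries against 248 and 237 FPKM in shCTL libraries of set 1. Values in set 2 were 243 and 241 FPKM in shNYNRIN libraries against 255 FPKM in shCTL replicate 4 (listed at 250). It overlapped in set 1 and lay lower in set 2, where its log2 fold change of -0.07 ± 0.038 did not pass (limma, adjusted p = 0.224). PSMB1, PSMB3 and PSMB4 passed in neither set. PSMB2 kept its set 1 call in all 7 fits with 1 library left out and its set 2 call in all 6. PSMB6 lost its set 1 call without shCTL replicate 2 or shNYNRIN replicate 1 or 2 (adjusted p up to 0.0602 with limma). It lost its set 2 call without shNYNRIN replicate 3 or 4 (adjusted p up to 0.115).

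Among the 8 base genes, 3 rose in set 1 and 6 fell in set 2, beside 9.33% and 8.71% of all genes. Their medians were 0.076 and -0.22. PSMD2, a large scaffold subunit that docks ubiquitin shuttle factors, had 133 and 127 FPKM in shNYNRIN libraries against 125 and 124 FPKM in shCTL libraries of set 1. Set 2 had 94.1 and 90.9 FPKM in shNYNRIN libraries against 142 FPKM in shCTL replicate 4 (listed at 138). The 2 shNYNRIN libraries of set 2 were the lowest of all 8. Its log2 fold change of -0.61 ± 0.040 in set 2 was the largest among the 40 genes (limma, adjusted p = 0.000446), and that of set 1 was 0.06 ± 0.033 (limma, adjusted p = 0.226).

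PSMD1, the other large scaffold subunit of the base, had 54.6 and 55.5 FPKM in shNYNRIN libraries against 48.1 and 48.4 FPKM in shCTL libraries of set 1. For set 2 the values were 46.8 and 48.6 FPKM in shNYNRIN libraries against 66.9 FPKM in shCTL replicate 4 (listed at 66). Its shNYNRIN libraries of set 2 were close to the shCTL libraries of set 1, and the shCTL libraries of set 2 stood above all others. It rose by 0.19 ± 0.032 in set 1 and fell in set 2 with -0.48 ± 0.039 (limma, adjusted p = 0.0133 and 0.000805). PSMC3, an ATPase of the base, had 103 and 95.7 FPKM in shNYNRIN libraries against 98.2 and 93.3 FPKM in shCTL libraries of set 1. Set 2 gave 97.8 and 94.4 FPKM in shNYNRIN libraries against 117 FPKM in shCTL replicate 4 (listed at 113). The groups overlapped in set 1 and not in set 2, where the log2 fold change was -0.28 ± 0.055 (limma, adjusted p = 0.0158).

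The ATPase genes PSMC1, PSMC5 and PSMC6 fell in set 2 with log2 fold changes of -0.20, -0.23 and -0.20 (limma, adjusted p = 0.0432, 0.00975 and 0.0280). PSMC2, another ATPase, rose in set 1 by 0.16, and PSMD4, the ubiquitin receptor, by 0.11 (limma, adjusted p = 0.0321 and 0.0348), and neither passed in set 2. PSMD1 lost its set 1 call without shCTL replicate 1 or 2 (adjusted p up to 0.0698 with limma). PSMC2 lost its call without any 1 library but shCTL replicate 4, and PSMD4 without any but shNYNRIN replicate 2 and shCTL replicate 4 (up to 0.151 and 0.143). In set 2, PSMC1 lost its call without shCTL replicate 1 or 2 or shNYNRIN replicate 3 or 4 (up to 0.160). PSMC3 lost its own without shNYNRIN replicate 4, PSMC5 without replicate 3 and PSMC6 without either of these (up to 0.0765, 0.0552 and 0.118). The set 2 calls of PSMD1 and PSMD2 held in all 6 fits.

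In the lid, 5 of 8 genes rose in set 1 and 4 fell in set 2, beside 9.33% and 8.71% of all genes. The medians of the lid were 0.15 and -0.16. PSMD14, the enzyme that cuts ubiquitin off the substrate, had 41.8 and 42.5 FPKM in shNYNRIN libraries against 39.9 and 41.5 FPKM in shCTL libraries of set 1. The set 2 values were 39.2 and 39.4 FPKM in shNYNRIN libraries against 52.1 FPKM in shCTL replicate 4 (listed at 52). Both shCTL libraries of set 2 stood above the other 6, which lay close together. Its log2 fold change was -0.40 ± 0.041 in set 2 and 0.05 ± 0.034 in set 1 (limma, adjusted p = 0.00152 and 0.362). PSMD7, the structural partner of PSMD14, rose by 0.12 in set 1 and fell in set 2 with -0.24 (limma, adjusted p = 0.0488 and 0.00730).

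PSMD8, a lid scaffold subunit, had 80.2 and 74.6 FPKM in shNYNRIN libraries against 64.9 and 64.2 FPKM in shCTL libraries of set 1. Values in set 2 were 74.5 and 74.0 FPKM in shNYNRIN libraries against 81.2 FPKM in shCTL replicate 4 (listed at 76). The 2 shCTL libraries of set 1 were the lowest of all 8, and the log2 fold change was 0.26 ± 0.038 in set 1 and -0.13 ± 0.047 in set 2 (limma, adjusted p = 0.00867 and 0.103). PSMD11, also a lid scaffold subunit, had 50.0 and 49.5 FPKM in shNYNRIN libraries against 42.5 and 43.9 FPKM in shCTL libraries of set 1. Set 2 had 45.5 and 46.9 FPKM in shNYNRIN libraries against 55.5 FPKM in shCTL replicate 4 (listed at 57). The groups were apart in both sets in opposite order, with 0.20 ± 0.033 and -0.26 ± 0.041 (limma, adjusted p = 0.0122 and 0.00687). PSMD12 had 20.4 and 21.9 FPKM in shNYNRIN libraries against 18.0 and 18.6 FPKM in shCTL libraries of set 1. For set 2 the values were 19.4 and 19.2 FPKM in shNYNRIN libraries against 22.3 FPKM in shCTL replicate 4 (listed at 22). It had the same pattern at a lower level, with 0.20 ± 0.046 and -0.20 ± 0.056 (limma, adjusted p = 0.0304 and 0.0487).

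PSMD3 rose in set 1 by 0.18 (limma, adjusted p = 0.0478), and PSMD6 and PSMD13 passed in neither set. Leaving out 1 library ended the set 1 call of PSMD8 (without shCTL replicate 2) and PSMD11 (without shCTL replicate 1), with limma's adjusted p at 0.0539 and 0.0700. The set 1 call of PSMD7 ended without any 1 library but shCTL replicate 4, and that of PSMD3 without any but shNYNRIN replicate 2 and shCTL replicate 4 (up to 0.204 and 0.172). That of PSMD12 ended without shCTL replicate 1 or 2 or shNYNRIN replicate 2, 3 or 4 (up to 0.134). In set 2 PSMD12 lost its call without shCTL replicate 1 or 2 or shNYNRIN replicate 3 or 4 (up to 0.162). PSMD7, PSMD11 and PSMD14 held theirs in all 6 fits.

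Of the activators and the inhibitor, none passed in set 1 and 1 of 4 fell in set 2, with medians of -0.0032 and -0.063. Over all genes 8.71% fell in set 2, and 1 in 4 is too few to set against this share. PSME3, the nuclear activator, had 63.3 and 61.6 FPKM in shNYNRIN libraries against 61.0 and 59.3 FPKM in shCTL libraries of set 1. Set 2 gave 62.0 and 60.3 FPKM in shNYNRIN libraries against 69.1 FPKM in shCTL replicate 4 (listed at 68). The shNYNRIN libraries were alike in both sets and the shCTL libraries of set 2 stood above the rest, with a log2 fold change of -0.17 ± 0.040 in set 2 (limma, adjusted p = 0.0252). That call was lost without shNYNRIN replicate 3 or 4 (up to 0.118). PSME4, the activator that binds acetylated histones, had log2 fold changes of -0.06 and -0.08, and PSMF1, which inhibits the core in vitro, of 0.13 and 0.08 (limma, adjusted p from 0.108 to 0.402). PSME1, near 1 FPKM, had -0.16 ± 0.22 and -0.05 ± 0.27, an error too wide to show a change of the size seen in the rings.

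Of the 7 assembly factors, 1 rose and 1 fell in set 1, beside 9.33% and 6.61% of all genes, and 1 rose and 2 fell in set 2, beside 11.6% and 8.71%, with medians of 0.028 and -0.12. Counts of 1 or 2 in 7 are too few to set against these shares. PSMD10, a chaperone of base assembly also known as gankyrin, had 45.4 and 43.6 FPKM in shNYNRIN libraries against 36.8 and 39.1 FPKM in shCTL libraries of set 1. The set 2 values were 30.9 and 30.1 FPKM in shNYNRIN libraries against 40.7 FPKM in shCTL replicate 4 (listed at 42). Its shNYNRIN libraries were the highest of the 8 in set 1 and the lowest in set 2, with log2 fold changes of 0.23 ± 0.042 and -0.40 ± 0.051 (limma, adjusted p = 0.0168 and 0.00313). PSMG1, a chaperone of the alpha ring, had 119 and 118 FPKM in shNYNRIN libraries against 116 and 110.4 FPKM in shCTL libraries of set 1. Values in set 2 were 109 and 107 FPKM in shNYNRIN libraries against 129.7 FPKM in shCTL replicate 4 (listed at 127). It fell in set 2 with -0.26 ± 0.038 (limma, adjusted p = 0.00509).

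PSMG3, another core chaperone, was the single gene of the 40 that fell in set 1. It had 19.9 and 20.0 FPKM in shNYNRIN libraries against 22.5 and 24.4 FPKM in shCTL libraries of set 1. Set 2 had 19.8 and 19.3 FPKM in shNYNRIN libraries against 21.4 FPKM in shCTL replicate 4 (listed at 22). Both shNYNRIN libraries were below the shCTL libraries in each set, with -0.22 ± 0.046 in set 1 and -0.12 ± 0.057 in set 2 (limma, adjusted p = 0.0243 and 0.179). PSMD5, a chaperone of the base, was the single gene that rose in set 2, to 29.9 and 31.5 FPKM in shNYNRIN libraries, against 27.1 FPKM in shCTL replicate 4 (listed at 28), by 0.17 ± 0.049 (limma, adjusted p = 0.0476). PSMG2, PSMG4 and PSMD9 passed in neither set. PSMD10 lost its set 1 call without shCTL replicate 1 or shNYNRIN replicate 1, and PSMG3 without shCTL replicate 2 or any 1 shNYNRIN library (adjusted p up to 0.0828 and 0.114 with limma). PSMD5 lost its set 2 call without shCTL replicate 1 or 2 or shNYNRIN replicate 3 or 4 (up to 0.190). The set 2 calls of PSMD10 and PSMG1 held in all 6 fits.

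**Figure D2:**
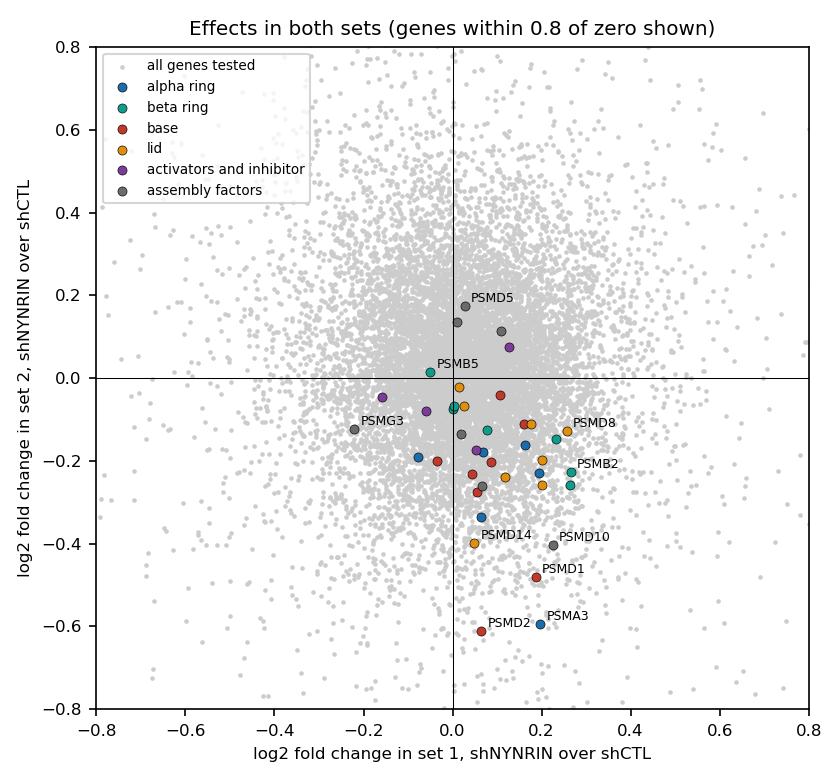
Log2 fold change of shNYNRIN over shCTL in set 1 (horizontal) against set 2 (vertical) for the 40 proteasome genes, coloured by role, over all genes tested (grey; values beyond 0.8 not drawn). Of the 40 genes 30 lie to the lower right, higher in shNYNRIN in set 1 and lower in set 2.

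The fitted sign was positive in set 1 and negative in set 2 for 30 of the 40 genes, beside 26.7% of all genes. Both calls together, a rise in set 1 and a fall in set 2, were made for 9 of the 40 genes, beside 1.64% of all genes: PSMA3, PSMA5, PSMB2, PSMB6, PSMD1, PSMD7, PSMD10, PSMD11 and PSMD12. The reverse, a fall and then a rise, was called for none of the 40 with limma, beside 1.87% of all genes. The difference between the sets' log2 fold changes, set 2 minus set 1, was itself called for 23 of the 40 genes, all negative, beside 10% of all genes negative and 10.3% positive. By role these were 4 of 6 in the alpha ring, 3 of 7 in the beta ring, 7 of 8 in the base, 6 of 8 in the lid, 1 of 4 activators and 2 of 7 assembly factors. The count was 15 without shNYNRIN replicate 3, and 18 without shCTL replicate 1 or 2.

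The size of the difference was largest for PSMA3, at -0.79 ± 0.045, followed by PSMD2 and PSMD1, both at -0.67 with errors of 0.052 and 0.051 (limma, adjusted p = 0.000300, 0.000712 and 0.000698). PSMD10 followed at -0.63, PSMB6 at -0.52, PSMB2 at -0.49, PSMD11 at -0.46 and PSMD14 at -0.45 (limma, adjusted p = 0.00173, 0.00630, 0.00111, 0.00226 and 0.00250). In PSMD2 and PSMD14 nearly all of it came from set 2, whereas in PSMB2 and PSMB6 the effects of the sets were of like size and opposite sign. The median difference was -0.36 in the alpha ring, -0.20 in the beta ring, -0.28 in the base and -0.37 in the lid, against 0.0051 for assembly factors, -0.036 for activators and the inhibitor, and -0.012 over all genes. Differences between the roles were not tested.

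The library names in the labels carry their own numbers, and these cut across the sets. The names numbered 1 and 2 are shNYNRIN replicates 1 and 2 (set 1) and shCTL replicates 3 and 4 (set 2), and those numbered 3 and 4 are shNYNRIN replicates 3 and 4 (set 2) and shCTL replicates 1 and 2 (set 1). A difference in hairpin effect between the sets is therefore the same contrast as a difference between library names 1 and 2 and library names 3 and 4, and these cannot be told apart. Within each set, shNYNRIN against shCTL is likewise a split by these numbers, so the calls in set 1 and in set 2 carry the same limit. For 17 of the 40 genes all 4 libraries named 1 or 2 lay above all 4 named 3 or 4, beside 5.49% of all genes, and for none did they all lie below, beside 5.17% (separation of listed values, with no test). The 17 were PSMA3, PSMA4, PSMA5, PSMA7, PSMB2, PSMB6, PSMC5, PSMD1, PSMD2, PSMD4, PSMD7, PSMD8, PSMD10, PSMD11, PSMD12, PSMD14 and PSMG1. No source used here states what the numbers mark, and the 2 tables may have been scaled apart.

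Seen by library-name number, the shNYNRIN and shCTL libraries were ordered otherwise. Among the names numbered 1 and 2, both shNYNRIN libraries lay below both shCTL libraries for 29 of the 40 genes, beside 17.8% of all genes, and above them for 2, beside 24%. Among the names numbered 3 and 4, shNYNRIN lay below for 9, beside 28.1%, and above for 18, beside 37.5%. These orders set libraries of different tables side by side. ShCTL replicate 4 of set 2 lay above both shCTL libraries of set 1 for 35 of the 40 genes, beside 41.4% of all genes, and both shNYNRIN libraries of set 2 lay below both of set 1 for 21, beside 31.5%.

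Summed over the 40 genes, the level was 2520 and 2479 FPKM in shNYNRIN libraries against 2351 and 2349 FPKM in shCTL libraries of set 1. For set 2 the values were 2394 and 2391 FPKM in shNYNRIN libraries against 2751 FPKM in shCTL replicate 4 (2727 as listed in replicate 3). The 4 shNYNRIN libraries thus lay between the shCTL libraries of the 2 sets. The mean of the shNYNRIN libraries differed from that of the shCTL libraries by 6.36% in set 1 and by -13.0% in set 2. The alpha and beta rings together summed to 1205 and 1198 FPKM in shNYNRIN libraries against 1137 and 1134 FPKM in shCTL libraries of set 1. Set 2 gave 1176 and 1183 FPKM in shNYNRIN libraries against 1337 FPKM in shCTL replicate 4. Base and lid together summed to 978 and 949 FPKM in shNYNRIN libraries against 889.7 and 893 FPKM in shCTL libraries of set 1. The set 2 values were 903 and 895 FPKM in shNYNRIN libraries against 1061 FPKM in shCTL replicate 4. In core and cap alike, the shNYNRIN libraries of set 1 lay above those of set 2, and all 4 lay below the shCTL libraries of set 2 and above those of set 1. Sums over genes of unequal level are led by PSMA7 and PSMB7 in the core and PSMD4 and PSMD2 in the cap.

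Over both sets, with table as an additive term, none of the 40 genes was called with limma, beside 0.317% of all genes (25 higher and 16 lower), and 3 had an unadjusted p under 0.05, beside 18.7% of all genes. These 3 were PSMG3 at -0.18, PSMA1 at -0.12 and PSMF1 at 0.11 (limma, adjusted p = 0.12, 0.257 and 0.252). The median log2 fold change of the 40 was -0.026, against 0.022 over all genes. Effects that differ between the sets widen the error of this fit: that of PSMA3 was 0.149, against 0.028 in set 1. NYNRIN itself, at -1.05, was not called in it (limma, adjusted p = 0.0612). Without shCTL replicate 4, the only control library of set 2 in the fit, 13 of the 40 rose and 1 fell, since set 1 alone then carried the effect. A fit with the library-name number as a replicate block called 7 of the 40 lower and none higher, beside 6.41% and 8.86% of all genes: PSMA3, PSMA4, PSMC3, PSMC5, PSMD1, PSMD2 and PSMD14. This blocked fit has fewer residual degrees of freedom than the additive model (4) and than the model of the effect in each set (3). Its errors therefore lean more on the spread shared over all genes. In it shNYNRIN replicate 1 adds nothing to the effect, since shCTL replicate 3, the control of the same number, is left out.

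The mean of the 2 within-set effects, which the contrast of library-name numbers does not touch, called 8 of the 40 lower and none higher, beside 7.08% and 10.7% of all genes. These were PSMD2 at -0.27, PSMA3 at -0.20, PSMD14 at -0.18, PSMG3 at -0.17, PSMD1 at -0.15, PSMA4 at -0.14, PSMG1 at -0.10 and PSMC5 at -0.09 (limma, adjusted p = 0.00205, 0.00333, 0.00783, 0.0225, 0.0115, 0.0159, 0.0378 and 0.0499). PSMG3 alone among them was lower in shNYNRIN libraries of both sets, while 7 of the 8 had a positive set 1 value and a larger negative set 2 value. For PSMB2, PSMB6 and PSMD12 the mean effect was 0.02, 0.00 and 0.00 (limma, adjusted p from 0.586 to 0.984).

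In the authors' deposited table, which compares the groups of set 1 alone, 11 of the 40 genes were higher in shNYNRIN at a q-value under 0.05, beside 9.4% of all listed genes, and 1 was lower, beside 10.6%. The authors' deposited table gave a log2 fold change of 0.24 for PSMB2, 0.23 for PSMD8 and -0.26 for PSMG3 (q-values 6.36e-11, 9.77e-06 and 0.0184).

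Other genes of the pathway were taken from a list of 33 that the symbol rule does not match, of which 29 were tested and 3 were listed in the second table alone. In set 1, 8 of the 29 rose and 2 fell, and in set 2 none rose and 10 fell (limma), with medians of 0.066 and -0.13, beside the all-gene shares given above. The difference between the sets was called negative for 12 and positive for 1. UBQLN1, a shuttle factor that carries ubiquitinated proteins to the proteasome, had 36.4 and 37.6 FPKM in shNYNRIN libraries against 29.8 and 30.8 FPKM in shCTL libraries of set 1. Values in set 2 were 24.0 and 24.6 FPKM in shNYNRIN libraries against 34.6 FPKM in shCTL replicate 4 (listed at 34). It rose by 0.28 in set 1 and fell in set 2 with -0.49 (limma, adjusted p = 0.00605 and 0.00105), the pattern of the 9 subunit genes above. VCP, the segregase that extracts proteins for degradation, and UBE3C, a ubiquitin ligase on the proteasome, did likewise, with 0.23 and 0.26 in set 1 and -0.21 and -0.26 in set 2 (limma, adjusted p from 0.00559 to 0.0102).

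ADRM1, a ubiquitin receptor of the base whose symbol is not of the PSM form, rose by 0.21 in set 1 and had -0.19 in set 2 (limma, adjusted p = 0.0374 and 0.0816). SEM1, a small lid subunit, had 0.0055 in set 1 and fell with -0.24 in set 2 (limma, adjusted p = 0.954 and 0.0305). NFE2L1, the activator of subunit genes, had 26.9 and 26.1 FPKM in shNYNRIN libraries against 26.7 and 26.5 FPKM in shCTL libraries of set 1. Set 2 had 28.6 and 28.0 FPKM in shNYNRIN libraries against 29.8 FPKM in shCTL replicate 4, with no call in either set. DDI2, the protease that activates NFE2L1, rose by 0.35 in set 1, and NGLY1, the enzyme that removes its sugars, fell in set 2 with -0.37 (limma, adjusted p = 0.0268 and 0.0101). NFE2L2, a related factor of the oxidative stress response, was the 1 gene of the list with a positive difference, at 0.71. It had 9.01 and 9.65 FPKM in shNYNRIN libraries against 15.2 and 14.2 FPKM in shCTL libraries of set 1. For set 2 the values were 15.9 and 16.1 FPKM in shNYNRIN libraries against 14.8 FPKM in shCTL replicate 4 (listed at 15). It fell in set 1 with -0.60 (limma, adjusted p = 0.00188).

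Of the interferon-inducible catalytic subunits, PSMB8 and PSMB9 were under 0.1 FPKM in all 4 libraries of set 2. PSMB10 had 19.6 and 17.3 FPKM in shNYNRIN libraries against 20.3 and 19.6 FPKM in shCTL libraries of set 1. Set 2 gave 16.8 and 18.6 FPKM in shNYNRIN libraries against 23.6 FPKM in shCTL replicate 4 (listed at 24). Both shNYNRIN libraries were lower in each set, and the change passed in set 2, at -0.40 ± 0.087 (limma, adjusted p = 0.0207).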

How the data were processed

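Sorted KG-1a cells with an shNYNRIN or an shCTL hairpin (4 libraries each) were prepared with a template-switching low-input kit, per the labels. Bowtie 0.12.9, Cufflinks 2.1.1 and HTSeq, and the builds hg38 and mm10 with no role for either, are named in the submitters' processing notes. The authors' deposited values are taken as FPKM in 7 libraries, by their decimals and scale and by the use of Cufflinks; no header names a unit. ShCTL replicate 3 was deposited with whole numbers only and is handled as a score. Its median distance from shCTL replicate 4 was -0.5003 where values lay between 10 and 30, and it entered no test. The first deposited table writes 0.001 for 0. It also holds the authors' mean normalized count (a signal over its 4 libraries), log2 fold change, p-value and q-value, and its header names no program. Libraries summed to between 308998 and 313691, and no source used here states the read depth.

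Tests used limma 3.58.1 (R 4.3.3) on log2(FPKM + 1) with a mean-variance trend. Genes needed 1 FPKM or more in 2 or more of 7 libraries, which left 12939. P-values were two-sided and adjusted by Benjamini-Hochberg over all of them, with 0.05 as threshold. An interaction model (3 residual degrees of freedom) gave the effect in each set and the difference of the sets, and it takes the spread of the lone set 2 control from the other libraries. An additive model (4 residual degrees of freedom) gave the effect over both sets. In data simulated from these means, limma recovered 99 of 100 changes of 0.5 and 52 of 100 of 0.2 in set 1. The same sizes were recovered 99 and 17 times in set 2, 81 and 2 times for the difference, and 100 and 74 times over both sets. The changed genes were drawn from those of higher level, and the change over both sets had the same size in each set. Far fewer genes were changed there than were called in either set or for the difference, and the Benjamini-Hochberg cut depends on that number. Recovery in each set and for the difference may therefore be other in the real data. In the real data the effect differed between the sets for 1339 genes upward and 1297 downward. The recovery over both sets does not hold for such genes.

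The members, gene lists and named genes were chosen with earlier results of these data known. Values in every library are given, by rule, for the largest called changes in each set and between them, the extremes of level, and the 3 active-site subunits.

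Pairing by library-name numbers was checked by correlating deviations from group means over 5877 genes with a mean of at least 10 FPKM. The 4 same-numbered pairs had r of 0.101 to 0.152, and 1 of the 4 was closest to its own number. These r also carry the difference between the tables, so the blocked counts stand beside the result over both sets. Alternatives were another pseudocount, filter, scaling, variance model, treatment of shCTL replicate 3, replicate block, form of the average, and each library left out.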

Additional observations from a re-analysis of the deposited data

Results flagged for a closer look

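The effect of the hairpin differed between the sets, by the interaction test of limma, for 23 of the 40 proteasome genes, all negative, and for NYNRIN, beside 10% of all genes negative and 10.3% positive. The differences, set 2 minus set 1 on the log2 scale, were -0.79 for PSMA3, -0.40 for PSMA4, -0.42 for PSMA5 and -0.25 for PSMA7 in the alpha ring, and -0.49 for PSMB2, -0.20 for PSMB4 and -0.52 for PSMB6 in the beta ring. In the base they were -0.67 for PSMD1, -0.67 for PSMD2, -0.15 for PSMD4, -0.27 for PSMC2, -0.33 for PSMC3, -0.28 for PSMC5 and -0.29 for PSMC6. In the lid they were -0.29 for PSMD3, -0.36 for PSMD7, -0.39 for PSMD8, -0.46 for PSMD11, -0.40 for PSMD12 and -0.45 for PSMD14. Among the remaining roles they were -0.23 for PSME3, -0.63 for PSMD10 and -0.33 for PSMG1. For NYNRIN it was -0.85, with a fall in both sets. The same contrast separates library names 1 and 2 from library names 3 and 4, and these cannot be told apart.

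A single library stood apart from the other 3 of its group by Dixon's ratio for PSMD8 in shNYNRIN replicate 1 (80.2 FPKM), PSMG2 in shCTL replicate 4 (9.95 FPKM), and PSMG4 in shNYNRIN replicate 1 (3.80 FPKM) and in shCTL replicate 2 (3.47 FPKM). Each group holds libraries of both tables and, in shCTL, a column of whole numbers. Chance alone flags about 5% of groups at this level, and 80 groups of 4 were looked at.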

How the results depend on the processing

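Over both sets, the count of proteasome genes called was 0, and it became 1 (lower) with shCTL replicate 3 plus 0.5, 7 with the library-name replicate block, 8 as the mean of the within-set effects, and 0 to 14 with 1 library left out. The set 1 count of 14 became 8 with upper-quartile scaling, 2 without the mean-variance trend, 3 with the title-number replicate block and 7 with the libraries of set 1 alone, and 4 to 14 with 1 library left out. The set 2 count of 20 became 11 without the trend and 7 with the title-number block, and 11 to 23 with 1 library left out. The count of differences between sets, 23, became 14 without the trend, 12 with the title-number block, and 15 to 23 with 1 library left out. Same-numbered titles had r of -0.174 to -0.127, and these r also carry the difference between the tables. Taken within a set, r was -0.040 in set 1 and -0.038 in set 2, so no pairing by title number was seen. The title-number block leaves fewer residual degrees of freedom, so a call lost under it need not mean a smaller effect. The library-name block could not be fitted within a set. Apart from upper-quartile scaling, the library-name block and the mean of within-set effects, these counts have no share over all genes beside them.

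NYNRIN over both sets was -1.05 (limma, adjusted p = 0.0612) and passed at -1.05 among genes of at least 10 FPKM, -1.13 and -1.14 with shCTL replicate 3 as deposited or plus 0.5, -1.13 with the library-name block and -1.14 as the mean of within-set effects; with 1 library left out it was -1.15 to -0.71. For the genes given in every library, 856 values kept their direction and side of the threshold, 81 lost the threshold, 5 gained it and 12 changed sign, none of them called. With 1 library left out, PSMB5 in set 2 was -0.0032 to 0.034, PSMB7 in set 1 -0.032 to 0.032, and PSME1 -0.41 to 0.095 in set 1, -0.15 to 0.062 in set 2 and -0.14 to 0.36 for the difference. With upper-quartile scaling PSMB5 was -0.0053 in set 2 and PSMB7 -0.036 in set 1. The title-number block gave -0.0032 for PSMB5 in set 2, and PSME1 was 0.021 in set 2 with shCTL replicate 3 as deposited. The cause of these moves was not tested. Levels near 1 FPKM limit PSME1, PSMA6 and PSMB3, and set 2 rests on 1 control library.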
